A study of Mus musculus with 6 samples.

Results

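The genes described here are 9 transcription factors and transcriptional coactivators of the mouse oocyte: Nobox, Figla, Lhx8, Sohlh1, Sohlh2, Taf4b, Pou5f1, Sebox and Bnc1. They were chosen by name, with earlier results of these data known. Every probe set that the array annotation ties to exactly 1 of these symbols was used. A probe set is a group of short oligonucleotides on the array that reports 1 target sequence. Of 21646 tested probe sets, 11 met this rule, and they covered 8 of the 9 genes. Sohlh1 had no such probe set among those tested and was not analysed here. The counts were 3 probe sets for Taf4b, 2 for Sebox and 1 for each of the other genes. No member was removed for low values.

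The study compared mature mouse oocytes, held in the second meiotic metaphase (MII, 3 samples), with immature, fully grown oocytes at the germinal vesicle stage (GV, 3 samples). MII oocytes carried a visible polar body and were taken from the oviducts of mice aged 22 to 24 days, given 5 IU of equine chorionic gonadotropin and then 5 IU of human chorionic gonadotropin, 14 h before collection. GV oocytes, with an intact nucleus, came out of large antral follicles. Their donors were of the same age and had only the first hormone (5 IU), 44 to 46 h earlier, and 5 µM milrinone in the medium kept the oocytes from resuming meiosis. Both stages therefore came from hormone-primed mice; no strain was named. Each sample pooled 300 oocytes, and the same 10 ng of RNA was labelled from each, so a smaller share of a transcript and a smaller amount per oocyte cannot be told apart.

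The oocyte's own transcription programme is built while the oocyte grows inside the follicle. The basic helix-loop-helix factors Sohlh1 and Sohlh2 act early and lie upstream of Lhx8, Nobox and Figla, whose targets include the zona pellucida genes and the oocyte growth factors. Basic helix-loop-helix proteins bind paired with a partner to the E-box, a short palindrome-like site, whereas Nobox, Lhx8 and Sebox carry homeodomains. By the end of growth the oocyte falls transcriptionally silent, and mRNA levels during maturation depend on how stored messages are kept, translated or degraded.

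Values are log2 expression, as deposited, in which a difference of 1 is a 2-fold change. Array medians were 5.47 to 5.49 in MII and 6.10 to 6.12 in GV samples. The array also has probe sets for poly-A spike-in controls, RNAs that can be added to a sample before labelling. These averaged 5.14 to 5.43 in MII and 4.28 to 4.71 in GV samples, below the median of every array. Whether such RNAs were added to these samples was not established here, which limits the scaling by them. Hybridization controls averaged 9.42 to 9.86 in MII and 8.94 to 9.82 in GV samples. Differences were therefore also computed under 4 other scalings of the arrays. The hybridization controls read 9.82, 8.97 and 8.94 in GV replicates 1, 2 and 3, so scaling by them widens the scatter within that stage. With them equalized 104 probe sets were called higher, against 2358 as deposited, so a rise not called there has limited meaning. Of 12 oocyte markers, 11 lay above the array median on all 6 arrays. Of 10 measured granulosa and cumulus cell markers, 0 did: their mean level was 3.66 to 3.78 in MII and 4.40 to 4.47 in GV samples. Inhba was above the median on all 3 GV and 0 MII arrays, Gja1 on 1 GV and 0 MII arrays. Foxl2 was above it on 1 GV and all 3 MII arrays. At the brightest of its 5 probe sets, Gja1 read 2.22, 2.21 and 2.24 in MII samples, against 6.32, 5.84 and 5.74 in GV samples. The other Gja1 probe sets averaged 3.24 to 4.36 in GV samples, below the array medians, and were also called lower in MII. Among these markers 4 were called lower in MII (Gja1, Inhba, Inhbb and Fshr) and 0 higher, against 37.8% lower and 10.5% higher of all genes. Their part in the results below was not tested.

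Nobox, Lhx8 and Figla, the homeobox and helix-loop-helix genes at the centre of this programme, fell in MII oocytes. They made 3 of the 11 probe sets (27.3%) called lower, where a call is a limma p under 0.05 after Benjamini-Hochberg adjustment. Among all tested probe sets 34.1% were called lower, so the share among these genes was near that background. None of the 11 was called higher, against 10.9% of all probe sets; 6 of the 11 had an unadjusted p under 0.05, against 51.4% of all, and without moderation of the variance 2 Taf4b probe sets were called higher. Falls of at least 2-fold were called for 3 of the 11 probe sets, against 20.6% of all, and falls of at least 4-fold for 2, against 8.82% of all. The median log2 difference was -0.29 over the 11 probe sets and -0.15 over all probe sets.

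**Figure D1:**
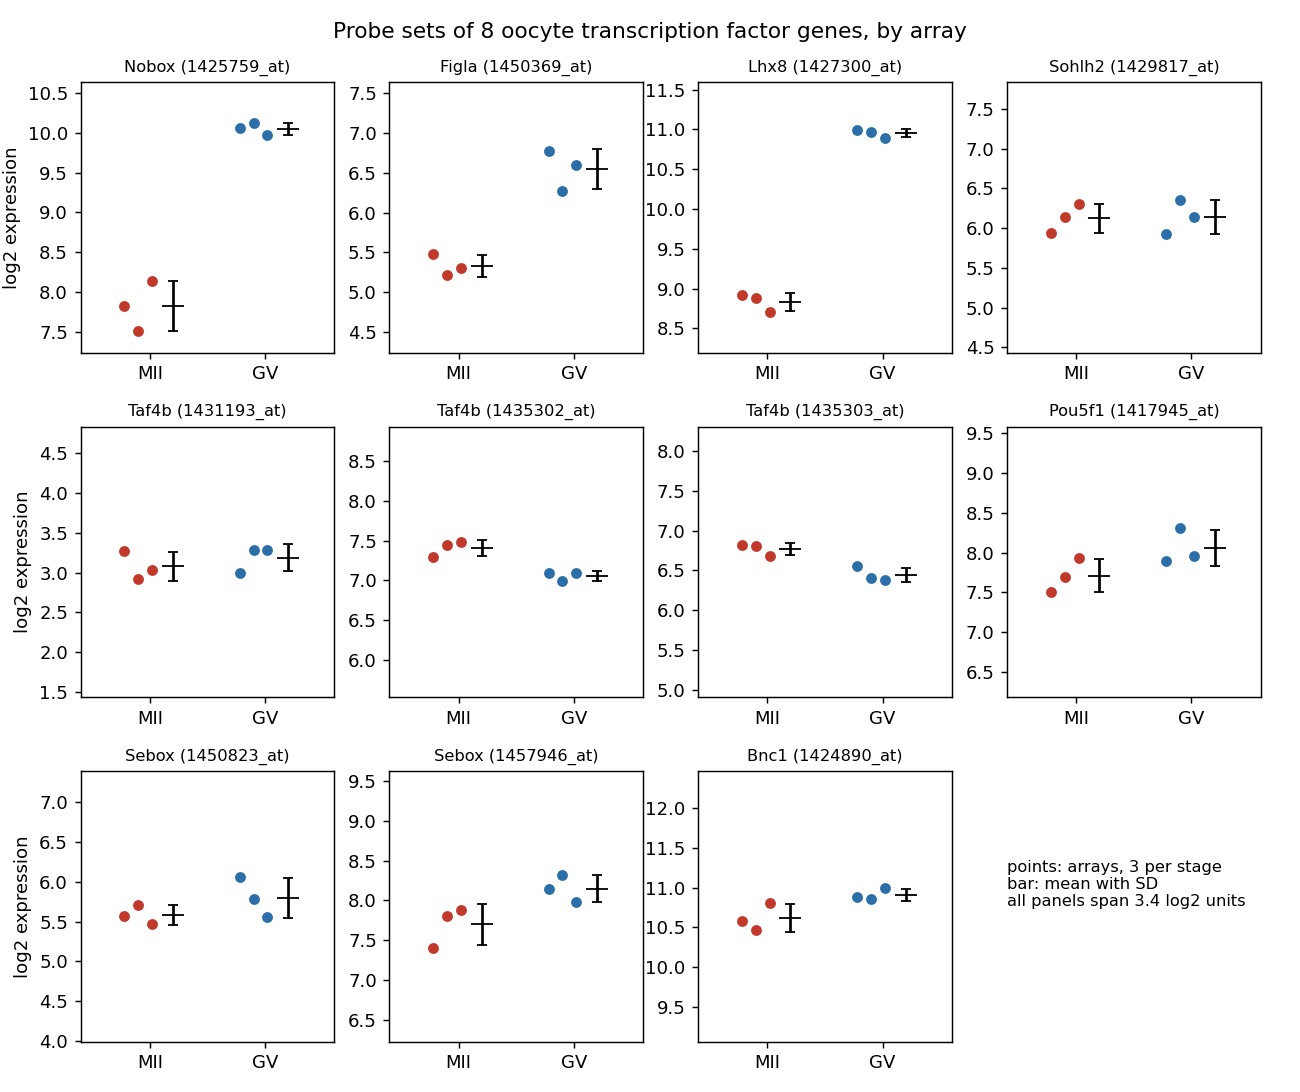
Log2 expression (vertical axes, each spanning 3.4 log2 units) of the 11 probe sets on each of 3 MII and 3 GV arrays, with the mean and SD beside the points. MII and GV points are far apart for Nobox, Lhx8 and Figla, and lie close together or overlap for the other genes.

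Nobox encodes a homeobox protein required for early follicles to grow and for expression of oocyte genes such as Gdf9. Its probe set, 1425759_at, read 7.82, 7.50 and 8.14 in the 3 MII samples, against 10.06, 10.13 and 9.97 in the 3 GV samples. The stages were separated by 1.83 log2 units, and the MII samples were the more scattered, with a mean of 7.82 ± 0.32 in MII and 10.05 ± 0.08 in GV samples (SD, n = 3 each). The difference was -2.23 ± 0.17 (SE; limma, Benjamini-Hochberg adjusted p = 2.8e-06), which left 21.3% of the GV level in MII oocytes.

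Lhx8 encodes a LIM homeodomain protein needed for the survival of oocytes in the newborn ovary. Its probe set, 1427300_at, read 8.92, 8.87 and 8.70 in MII samples, against 10.99, 10.97 and 10.90 in GV samples. Both stages were tight and did not overlap, at 8.83 ± 0.12 in MII and 10.95 ± 0.05 in GV samples (SD, n = 3 each). The difference was -2.12 ± 0.13 (SE; limma adjusted p = 6.2e-07), with 23.0% of the GV level in MII oocytes.

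Figla encodes the basic helix-loop-helix factor that the primordial follicle needs in order to form and that drives the zona pellucida genes. Its probe set, 1450369_at, read 5.48, 5.21 and 5.30 in MII samples, against 6.77, 6.27 and 6.60 in GV samples. The stages did not overlap, and the mean was 5.33 ± 0.13 in MII and 6.55 ± 0.26 in GV samples (SD, n = 3 each). Figla fell by 1.22 ± 0.16 on the log2 scale (SE; limma adjusted p = 0.00015), which is 2.33-fold lower in MII. All 3 MII values lay below their array's median, no measure of background was used, so how much this fold is compressed by background was not tested.

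These falls kept their sign and their call under each of the 15 alternatives run. Over them the difference ranged from -3.10 to -1.61 for Nobox, from -3.00 to -1.50 for Lhx8 and from -2.09 to -0.60 for Figla. The smallest values came when array medians were equalized, and the largest when poly-A controls were equalized. Figla was at -0.60 both when array medians were equalized and after quantile normalization, a smaller fall than the -1.22 of the deposited scale.

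**Figure D2:**
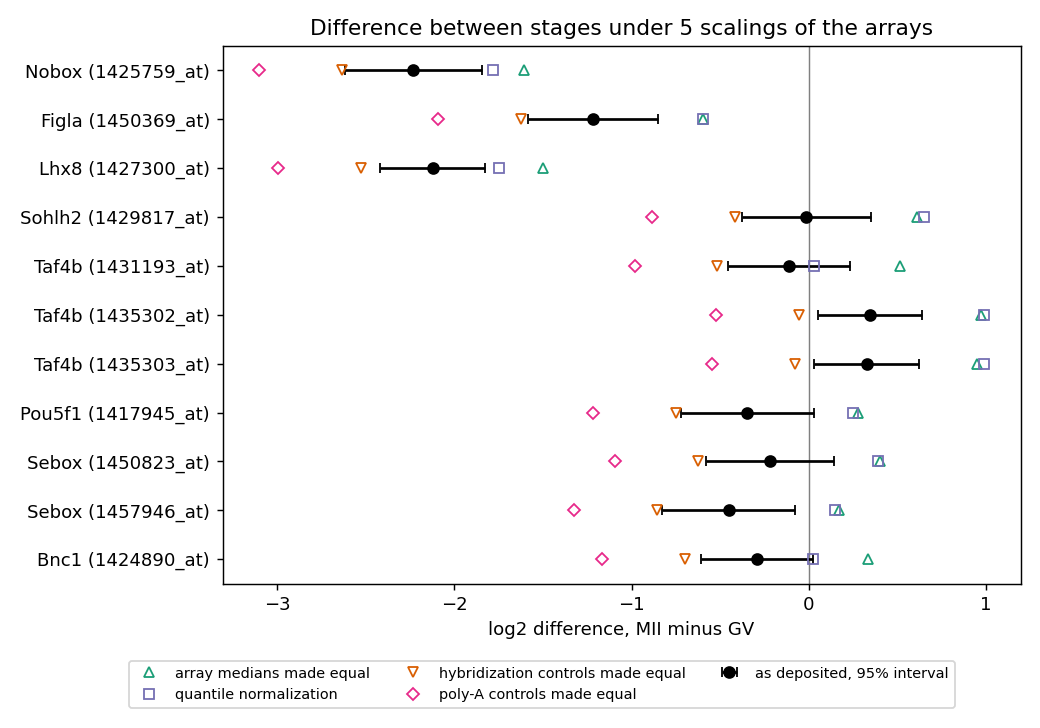
Log2 difference (MII minus GV) of each probe set as deposited, with its 95% interval, and under 4 other scalings of the arrays. Nobox, Lhx8 and Figla lie left of 0 in all 5, whereas every other probe set lies on both sides of 0 depending on the scaling.

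Since the scale between arrays moves all genes together, pairs of genes were also compared within each array, which removes it where an array is shifted as a whole. All 28 pairs of the 8 genes were taken with the brightest probe set of each, and were tested by an exact 2-sided permutation test, in which 3 against 3 samples allow no p below 0.1 (0.13 after Benjamini-Hochberg adjustment over the pairs). The difference between Nobox and Bnc1 was -2.76, -2.96 and -2.67 in MII samples, against -0.82, -0.73 and -1.02 in GV samples, a shift of -1.94 (exact p = 0.1). Lhx8 against Bnc1 shifted by -1.83 and Figla against Bnc1 by -0.93, each without overlap between stages (exact p = 0.1 for both). Figla against Pou5f1 shifted by -0.87 and Figla against Sebox by -0.77, but both pairs overlapped between stages (exact p = 0.2 for both). Figla less Lhx8 was higher in every MII sample than in any GV sample, by 0.90 on average (exact p = 0.1), although the Figla values in MII lay below the array medians. Nobox less Lhx8, at -1.10, -1.37 and -0.56 in MII and -0.94, -0.85 and -0.93 in GV samples, overlapped and shifted by -0.11 (exact p = 0.7).

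Sequence upstream of the genes that fell is shown because Figla and the Sohlh factors act through E-boxes. The motif searched was CANNTG, which reads as the same motif on both strands, in the 250 bases before each RefSeq transcript start (GRCm38.p6). It was present in 66.2% of 32851 such windows, and the narrower form CAGGTG or CACCTG (either strand) in 17.2%. The Nobox window held 2 matches, both of the narrower form, and the Figla window 2 close together, 1 of that form. For both genes the RefSeq gene extends beyond the start used, so only 26 bases around the matches are printed, with the motif in capitals. The Nobox pieces are at chr6:43309676-43309701 and chr6:43309589-43309614, and the Figla piece is at chr6:86017008-86017033.
Nobox, minus strand: gcccccacccCAGGTGtgcggtgcct
Nobox, minus strand: agactccacaCACCTGgccaccccac
Figla, plus strand: acctcgcactCAGGTGcgtCAAGTGt

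The Lhx8 window, at chr3:154330561-154330810, held 0 matches, which says only that these letters are not in this stretch. Zp3, a zona pellucida gene that fell alongside them, is shown for comparison at chr5:135979855-135980104, with 3 matches. One of these was CACGTG, present in 6.02% of all windows, and one was CAGGTG.
Lhx8, minus strand: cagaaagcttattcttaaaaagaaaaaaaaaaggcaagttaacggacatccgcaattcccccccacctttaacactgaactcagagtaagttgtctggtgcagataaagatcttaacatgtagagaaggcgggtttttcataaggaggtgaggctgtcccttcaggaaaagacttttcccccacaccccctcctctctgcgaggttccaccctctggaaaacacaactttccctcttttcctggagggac
Zp3, plus strand: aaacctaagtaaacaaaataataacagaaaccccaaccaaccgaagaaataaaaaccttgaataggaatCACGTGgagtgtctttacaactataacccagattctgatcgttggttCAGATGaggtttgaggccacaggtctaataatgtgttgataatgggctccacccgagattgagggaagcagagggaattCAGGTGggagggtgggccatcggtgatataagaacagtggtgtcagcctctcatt

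The homeodomain core TAATTG (or its reverse complement CAATTA), part of the element that Nobox is known to bind, was in 7.17% of all windows, and TAATTA in 4.84%. Neither was found in the windows of Nobox, Figla, Lhx8, Sohlh2, Sebox, Pou5f1, Bnc1 or Zp3. The Bmp15 window held 1 TAATTA and 1 CANNTG. These matches describe letters, not binding.

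Sohlh2, the germ cell basic helix-loop-helix factor (1429817_at), read 5.94, 6.14 and 6.31 in MII samples, against 5.92, 6.36 and 6.15 in GV samples. The values of the 2 stages interleaved. The difference was -0.01 ± 0.16 (SE; limma adjusted p = 0.95), with a 95% interval from -0.38 to 0.35, so a change of up to about 1.3-fold in either direction is within the interval. The sign of the difference turned with the scaling, which gave 0.61, called higher, when array medians were equalized and -0.89, called lower, when poly-A controls were equalized.

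Taf4b, a gonad-enriched subunit of the general transcription factor TFIID, showed small upward differences at 2 of its 3 probe sets, neither of them called. Probe set 1435302_at read 7.29, 7.44 and 7.48 in MII samples, against 7.09, 6.99 and 7.09 in GV samples. Every MII value lay above every GV value, and the difference was 0.35 ± 0.13 (SE; limma adjusted p = 0.054; 95% interval 0.05 to 0.64). Probe set 1435303_at, designed from the same sequence record and so no independent reading, gave 6.82, 6.81 and 6.68 in MII and 6.55, 6.40 and 6.37 in GV samples, a difference of 0.33 ± 0.13 (limma adjusted p = 0.070). The dimmest, 1431193_at, was far below the array medians, at 2.92 to 3.27 in MII and 2.99 to 3.29 in GV samples, and did not separate the stages (-0.11 ± 0.15, limma adjusted p = 0.60).

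The direction for Taf4b depended on the scaling. When array medians were equalized the upper 2 probe sets were at 0.97 and 0.95, and after quantile normalization both were at 0.99, called higher in each case. When hybridization controls were equalized they were at -0.057 and -0.078, not called, and when poly-A controls were equalized at -0.53 and -0.55, called lower. Within the arrays, Taf4b less Sebox was -0.11, -0.37 and -0.40 in MII samples, against -1.05, -1.33 and -0.89 in GV samples, and Taf4b less Bnc1 shifted by 0.64, in both cases without overlap (exact p = 0.1 for each).

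Pou5f1, the POU-domain factor (Oct4) that the oocyte passes to the embryo and that later sustains pluripotent cells (1417945_at), read 7.51, 7.69 and 7.93 in MII samples, against 7.89, 8.31 and 7.96 in GV samples. MII replicate 3 lay above GV replicate 1, so the stages overlapped. The difference was -0.35 ± 0.17 (SE; limma adjusted p = 0.13), with a 95% interval from -0.72 to 0.03. It was 0.28 when array medians were equalized, not called, and -1.22, called lower, when poly-A controls were equalized.

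Sebox, a homeobox maternal effect gene needed by the early embryo, had 2 probe sets. The brighter, 1457946_at, read 7.41, 7.81 and 7.87 in MII samples, against 8.14, 8.32 and 7.98 in GV samples. The stages were separated by only 0.11, and the difference of -0.45 ± 0.17 (SE; limma adjusted p = 0.051) was not called; it was called lower without GV replicate 3 (-0.54), without MII replicate 3 (-0.54) and among the brighter probe sets alone, and it was at 0.17, not called, when array medians were equalized. The other, 1450823_at, read 5.57, 5.71 and 5.46 in MII and 6.06, 5.79 and 5.56 in GV samples, overlapped between the stages and differed by -0.22 ± 0.16 (limma adjusted p = 0.31). It was called higher when array medians were equalized (0.40) and lower when poly-A controls were equalized (-1.09).

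Bnc1, the zinc finger protein basonuclin, found in oocytes and known to bind ribosomal RNA gene promoters (1424890_at), read 10.58, 10.47 and 10.80 in MII samples, against 10.88, 10.85 and 10.99 in GV samples. All MII values were the lower ones, by a gap of 0.05, which is less than the spread within either stage. The difference was -0.29 ± 0.14 (SE; limma adjusted p = 0.13; 95% interval -0.61 to 0.03), and it was 0.33 when array medians were equalized, not called.

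In all, 5 of the 11 probe sets had every MII value below every GV value, against 39.4% of all tested probe sets, and 2 had every MII value above, against 14.6%. The SD within a stage was 0.05 to 0.32 over these probe sets.

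**Figure D3:**
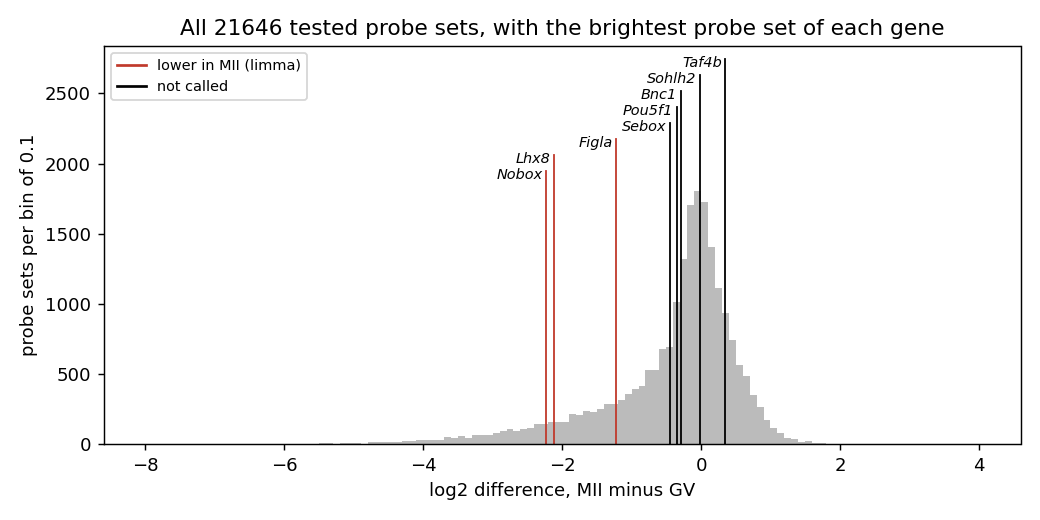
Histogram of the log2 difference (MII minus GV) of all 21646 tested probe sets, counted in bins of 0.1, with a line at the brightest probe set of each of the 8 genes. Nobox, Lhx8 and Figla lie in the left part, where 20.6% of all probe sets were called lower by 2-fold or more. The other 5 genes lie under the main peak.

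Genes known to depend on Nobox, Figla, Lhx8 or the Sohlh factors were lower more often than higher in MII oocytes, as were all genes. This list and the others below were chosen with earlier results of these data known, which limits the comparison of their shares with all genes. Of 17 measured members of the list of 20 regulated genes, 9 fell and 2 rose, against 37.8% and 10.5% of all genes with 1 probe set per gene. All 17 lay above the array median on all 6 arrays, whereas the background of all genes also holds dimmer ones. The median difference was -0.80 over the list and -0.20 over all genes. The falls numbered 8 and the rises 6 when array medians were equalized, and 15 and 0 when poly-A controls were equalized. The zona pellucida genes fell in all 5 scalings. Zp2 read 7.41, 7.55 and 7.35 in MII samples, against 11.81, 11.76 and 11.51 in GV samples, while Zp1 differed by -1.26 ± 0.16 and Zp3 by -2.76 ± 0.15. Dnmt1, the maintenance DNA methyltransferase, fell by 2.30 ± 0.15, and all 3 of its probe sets were called lower.

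Gdf9 and Bmp15, the oocyte growth factors of the same list, were not called lower on the deposited scale. Gdf9 read 12.39, 12.62 and 12.77 in MII samples, against 12.52, 12.62 and 12.37 in GV samples, and its difference of 0.09 ± 0.15 was not called (limma adjusted p = 0.68). It was called higher when array medians were equalized (0.71) and lower when poly-A controls were equalized (-0.79). Bmp15 rose by 0.69 ± 0.17 (limma adjusted p = 0.0064), although its other probe sets, at -0.22 and -0.33, were not called, and neither was the rise once hybridization controls (0.29) or poly-A controls (-0.18) were equalized. H1f8, the oocyte linker histone, was at 0.66 ± 0.21 and called higher although the stages overlapped. That call was lost without moderation, when any of 4 samples was left out (MII replicates 2 and 3, GV replicates 1 and 3; 0.52 to 0.65), and once either set of controls was equalized.

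Partners of the basic helix-loop-helix and LIM homeodomain proteins went both ways, with 3 of 14 measured genes called lower and 3 higher at the brightest probe set, against 37.8% and 10.5% of all genes. One of the 3 called lower, Ssbp3, was called higher at another probe set; without it 2 of 13 were lower. The median difference was -0.03, and without moderation 1 of the 14 was lower. When array medians were equalized 1 was lower and 9 higher, and when poly-A controls were equalized 10 were lower and 0 higher. Tcf3, an E protein that pairs with Figla, rose by 1.09 ± 0.16 (limma adjusted p = 0.00025), and its second probe set was called higher at 0.72. Tcf4, another E protein, was at 0.78 ± 0.22, but 3 of its 6 probe sets were not called and the call was lost without GV replicate 2 (0.71) or 3 (0.69). Tcf12, the remaining E protein, was at -0.46 ± 0.15 and called lower at all 3 probe sets. That call was lost when any of 4 samples was left out (MII replicates 1 and 2, GV replicates 1 and 2; -0.44 to -0.39), and the difference was 0.16 when array medians were equalized.

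Ldb1, the adaptor that LIM homeodomain proteins bind, read 5.67, 5.52 and 5.68 in MII samples, against 7.11, 7.21 and 6.76 in GV samples. It fell by 1.40 ± 0.16 (limma adjusted p = 3.7e-05), and the call held under all 14 alternatives that included its probe set. Rlim, a ubiquitin ligase that targets such adaptors, rose by 0.64 ± 0.16 at its brightest probe set; of its other 4 probe sets, 1 was called higher and 3 were not called. The Ldb1 partner gene Ssbp3 was at -0.997 at the brightest probe set and at 0.73 at the other, called in opposite directions, so no direction is given for it. The rises of Tcf3, Tcf4 and Rlim were not called once either set of controls was equalized.

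Among TFIID subunits, TBP relatives and TFIIA, the company of Taf4b, 6 of 18 measured genes rose and 2 fell, against 10.5% and 37.8% of all genes. The median difference was 0.17, and without GV replicate 2 the rises numbered 3. When array medians were equalized 16 rose and 1 fell, and when poly-A controls were equalized 0 rose and 13 fell. With hybridization controls equalized 0 rose and 2 fell. Taf10 rose by 1.03 ± 0.20, although its other probe set was at -0.38 and not called, and the TFIIA subunit gene Gtf2a2 rose by 0.72 ± 0.16 and Taf6 by 0.68 ± 0.15. The calls for Taf10, Gtf2a2 and Taf6 were lost with hybridization controls equalized (0.63, 0.31 and 0.27) and with poly-A controls equalized (0.16, -0.16 and -0.19). Taf3 fell in each scaling, with 8.48, 8.23 and 8.73 in MII samples, against 10.22, 10.58 and 10.66 in GV samples (0.249 times the GV level, limma adjusted p = 7.1e-06). Tbp, the TATA-binding protein gene, was at -0.61 ± 0.13 and called lower, while its other probe set was at 0.19 and not called, and the difference was 0.01 when array medians were equalized. The Taf4b paralogue Taf4 was called higher at both probe sets, at 0.48 and 0.58. The brighter probe set's call was lost when MII replicate 3, GV replicate 1 or GV replicate 2 was left out (0.42 to 0.45) and once either set of controls was equalized. Taf4 was singled out after its values were seen.

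Of 12 measured pluripotency factors around Pou5f1, 3 fell and 2 rose, against 37.8% and 10.5% of all genes, with a median difference of -0.02. When array medians were equalized 1 fell and 9 rose, and when poly-A controls were equalized 10 fell and 0 rose. Zfp42 (Rex1) was called lower at -1.24 ± 0.19, at levels below the array medians. Nr5a2, which activates Pou5f1, was at -0.85 ± 0.22 and Sall4 at -0.63 ± 0.14, both called lower, but neither was called when array medians were equalized (-0.22 for Nr5a2 and -0.01 for Sall4). Another Sall4 probe set was at 0.41 and not called. Dppa3 (Stella), a maternal protector of methylation in the zygote, rose by 0.69 ± 0.16 and Klf2 by 0.66 ± 0.15, calls lost once either set of controls was equalized. Klf2 lay below the array medians, at 4.52 to 4.77 in MII and 3.78 to 4.17 in GV samples.

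Genes of RNA polymerase I transcription, the process at whose promoters Bnc1 is known to bind, were lower more often than higher, as were all genes. Of 13 measured, Bnc2 not counted, 11 were called lower and 0 higher at the brightest probe set, against 37.8% and 10.5% of all genes, and the median difference was -1.002. One of the 11, Taf1d, was called lower at 3 of its 4 probe sets and higher at the other, so no direction is given for it; without it 10 of 12 were lower. Among the 8 with a bright probe set 6 were lower, and among 6 left without the _s, _x and _a types, which can match several transcripts, 5 were lower. When array medians were equalized 7 of the 13 were lower and 1 higher. Polr1d fell by 2.56 ± 0.15 at its brightest probe set and was called lower at all 4. Znrd1, another polymerase I subunit, fell by 2.54 ± 0.19. Taf1a, of the promoter selectivity factor, fell by 2.23 ± 0.14. Both were called lower in all 5 scalings. Bnc2, the relative of Bnc1, was at -0.24 ± 0.13 at its brighter probe set and not called (limma adjusted p = 0.17), while its dimmer probe set was called lower at -2.12. Bnc2 was singled out after its values were seen.

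Of 12 other transcription factors with known roles in oocytes, 4 were called lower and 2 higher at the brightest probe set, against 37.8% and 10.5% of all genes, with a median difference of 0.05. Without Yy1 and Foxo1, each called in both directions at different probe sets, 4 of 10 were lower and 1 higher. Of the 12, 2 were lower without MII replicate 3 or GV replicate 1, and 1 was higher without MII replicate 1, MII replicate 2 or GV replicate 2. When array medians were equalized 1 was lower and 7 higher, and when poly-A controls were equalized 9 were lower and 0 higher. Sp1, a factor that binds GC-rich promoter sites, fell by 1.13 ± 0.14 in a call kept by all 15 alternatives, although its other probe sets, at 0.49 and -0.06, were not called. Trp63, the guardian of oocyte genome integrity, was at -0.65 ± 0.15, with another probe set at 0.25 not called, and it was at -0.03 when array medians were equalized. Ybx2, a Y-box nucleic acid-binding protein of germ cells, was at -0.82 ± 0.27 and called lower, a call lost without MII replicate 1 (-0.70), MII replicate 3 (-0.86) or GV replicate 1 (-0.48). The call was also lost without moderation, when array medians were equalized (-0.20) and after quantile normalization (-0.17). Gata4 rose by 0.69 ± 0.17, not called without moderation or once either set of controls was equalized. All 3 of its GV values lay below their array's median. Yy1 was called higher at 0.49 at its brightest probe set and lower at -1.13 at another, so no direction is given.

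**Figure D4:**
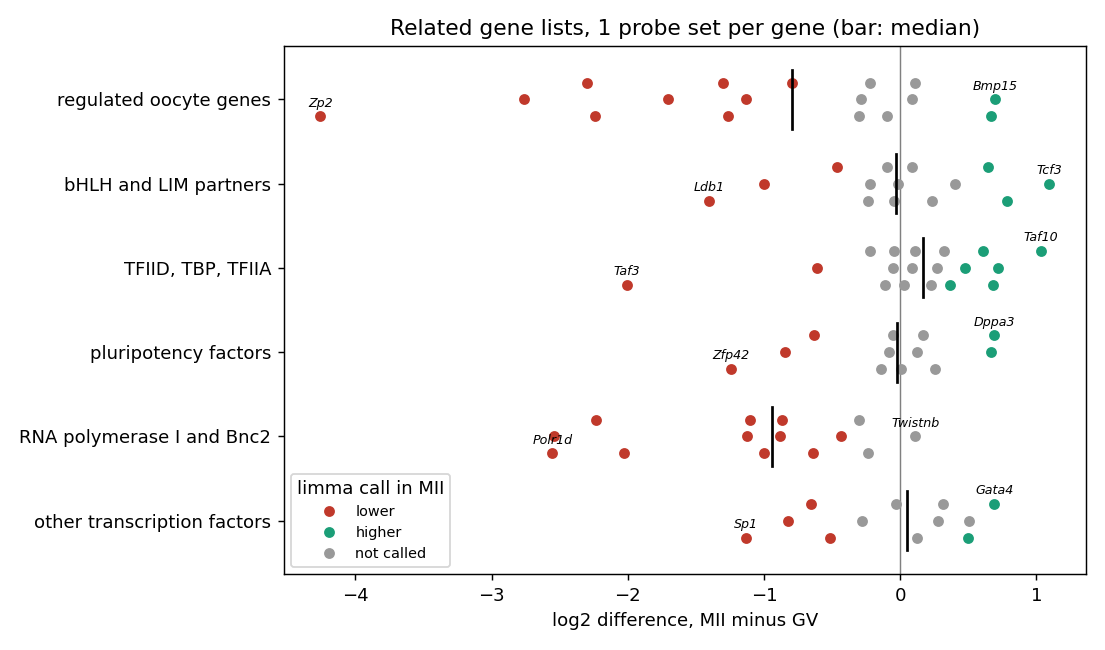
Log2 difference (MII minus GV) of each measured gene in 6 related lists, 1 probe set per gene, coloured by the limma call, with a bar at the list's median. The lists of regulated oocyte genes (median -0.80) and of RNA polymerase I genes with Bnc2 (median -0.94) lie to the left, and the TFIID list (median 0.17) lies around 0.

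The genes of these lists whose pattern was nearest to each falling member were found by the distance between the 6 values, each centred on the gene's own mean, over 87 genes. Nearest to Nobox were Znrd1 (distance 0.42 log2 units) and Taf3 (0.48), against a median distance of 2.68. Nearest to Lhx8 were Taf1a (0.32) and Dnmt1 (0.36), with a median of 2.51. Nearest to Figla were Polr1c (0.43) and Sp1 (0.47), with a median of 1.55. All these distances share the same 6 arrays in 2 stages, so genes with a like difference between the stages are near each other by this measure.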

How the data were processed

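The deposited values are log2 expression per probe set, and RMA and affy are named, without version or settings, in the submitters' processing notes. The sources used here do not say how the 21702 deposited probe sets were chosen. RNA was amplified in 2 rounds with a mixture of primers, per the labels' protocols. After removal of 56 control features, MII was compared with GV over 21646 probe sets with the limma package (version 3.58.1, R 4.3.3; moderated 2-sided tests, stage as the only term). Benjamini-Hochberg adjustment covered all of them, with a threshold of 0.05 and no intensity filter. The analysis was tested on simulated data. Genes are named from GEO's platform annotation (19078 probe sets with 1 symbol, 550 with several, 2018 with none); 19031 probe sets matched RefSeq's GRCm38.p6 gene table, and 0 symbols changed. List genes are represented by the brightest probe set. All members were named. From each list up to 3 called genes with the largest rise and 3 with the largest fall were named, besides Gdf9, Bmp15, Zp1, Zp2 and Zp3 and the 2 genes nearest to each called member. The members and lists were chosen with earlier results of these data known. Counts of related lists without Bnc2 or without genes called both ways were added after seeing the data. The design text calls the samples biological replicates. The number of arrays limits the precision. Promoter sequences are RefSeq's. The alternatives were 4 scalings, 2 filters, 2 settings of variance moderation, the replicate block and leaving out each sample.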

Additional observations from a re-analysis of the deposited data

How the results depend on the processing

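Nobox, Lhx8 and Figla remained called lower under all 15 alternatives. The number of member probe sets called lower was 3 to 4 when 1 sample was left out, the number called higher 0, and the median difference -0.39 to -0.23; the fourth call was Sebox 1457946_at, without GV replicate 3 or MII replicate 3. Among the other probe sets the scale between arrays decided sign and call. With array medians equalized (a shift of 0.62 in the median of all probe sets), 5 were called higher (Sohlh2, the 3 Taf4b probe sets and Sebox 1450823_at) and the median was 0.33, with Sohlh2 at 0.61, Taf4b 1431193_at at 0.51, Pou5f1 at 0.28, Sebox at 0.40 (1450823_at) and 0.17 (1457946_at), and Bnc1 at 0.33, all above 0. After quantile normalization (a shift of 0.34), 3 were called higher and the median was 0.15, with Sohlh2 at 0.65, Taf4b 1431193_at at 0.032, Pou5f1 at 0.25, Sebox at 0.39 and 0.15, and Bnc1 at 0.023. With hybridization controls equalized (a shift of -0.40) the median was -0.70, and the upper Taf4b probe sets were at -0.057 and -0.078. With poly-A controls equalized (a shift of -0.87) all 11 were called lower, with a median of -1.17 (-0.53 and -0.55 for the upper Taf4b probe sets). Sohlh2 ranged from -0.12 (without GV replicate 1) to 0.094 (without GV replicate 2) and was at 0.079 without MII replicate 1. Among the 9 probe sets with a mean above the overall median, 1 was called higher (Taf4b 1435302_at) and 4 lower, and without moderation 2 were called higher (Taf4b). With the replicate block 3 were called lower and 0 higher. Deviations of same-numbered samples correlated at 0.091, 0.029 and 0.027, and those of differently numbered samples at -0.28 to 0.29. With 3 samples per stage this cannot settle whether the shared numbers pair the samples. The cause of the changes between scalings was not tested. No measure of signal over background was used, so values below the array median have limited meaning.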
